A study of Mus musculus with 10 samples.

Results

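The genes described here are 45 targets of MYC transcription factors that build ribosomes in the nucleolus or are commonly induced with that machinery. They were followed in neuroblastomas of 10 transgenic mice. Members were found as probes of the arrays carrying one of 45 fixed gene symbols. Each gene was represented by its brightest probe over the 10 arrays, so that 68 probes became 45 genes out of 22263 tested. The signal of all 45 exceeded background clearly in the tumour channel on all 10 arrays. The ALK/MYCN group held 5 untreated tumours of mice that were ALK+/- and MYCN+/-, with the F1174L form of the receptor tyrosine kinase ALK, on a C57BL/6 x 129X1/SvJ background. The MYCN group held 5 untreated tumours of mice that were MYCN+/- alone, on 129X1/SvJ. All 10 mice thus carried the MYCN transgene, and the mutant receptor and the mixed background came together, so that their parts in a difference cannot be told apart. In these lines, as known from the field rather than from the labels, both transgenes are driven by a tyrosine hydroxylase promoter, which is active in sympathetic precursor cells. Ages were not given in the sources used here. Each tumour RNA (Cy3) shared an array with a reference RNA (Cy5) pooled from 11 mouse cell lines. A level below is the log2 ratio of tumour over that reference for 1 probe, and a difference is the mean level in ALK/MYCN minus that in MYCN tumours.

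Ribosomes are assembled in the nucleolus. RNA polymerase I copies the ribosomal DNA into a long precursor, small nucleolar ribonucleoproteins (snoRNPs) guide its chemical modification, and a large set of processing factors cuts and folds it into the RNA of the small and the large subunit. MYC and MYCN bind and activate genes at each of these steps, which makes nucleolar genes a common readout of MYC activity in tumours. Neuroblastoma is a tumour of the sympathetic lineage in which MYCN is the family member most often amplified.

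The arrays were of even quality, and 53.8% to 58.7% of probe spots were clearly above background in Cy3. The 7 markers of sympathetic neuroblasts used here, such as Th and Dbh, all lay above the reference in both groups, with a median level of 4.65 in ALK/MYCN and 4.60 in MYCN tumours. Their differences were all above 0, with a median of 0.18, and Th, Ddc and Isl1 rose by 0.23, 0.27 and 0.32. Some tumours stood apart in markers of other tissues, given as the mean of a marker list centred per gene. The adrenal cortex list stood at 4.12 in ALK/MYCN 3 and between -0.57 and -0.25 in the other 9 tumours. Skeletal muscle markers stood at 4.72 in MYCN 2 and 2.47 in MYCN 1. They lay between -0.60 and -0.32 in the other MYCN tumours and between -1.46 and -1.03 in ALK/MYCN tumours, so that the groups did not overlap. All 6 measured muscle markers had a difference below 0, with a median of -2.50, and 2 of them fell. The tumours came from different mice, so that p-values measure the spread between animals of a group.

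Most of the nucleolar genes were lower in ALK/MYCN than in MYCN tumours. Of the 45, 33 fell, 2 rose and 10 did not pass (limma, Benjamini-Hochberg adjusted p at 0.05), against 12.2% of all genes tested that fell, 14.2% that rose and 26.5% that passed in either direction. The neuroblast markers did not fall with them, since 3 of 7 rose and 4 did not pass, and the part of tumour cell content was not tested. The falls were moderate, from 1.24-fold to 1.79-fold on the linear scale, and 16 members differed by less than -0.5 on the log2 scale. The median difference was -0.42 over the members and -0.0036 over all genes. In 29 of the 33 genes that fell, the highest ALK/MYCN tumour lay below the lowest MYCN tumour, which held for 8.6% of all genes; both genes that rose had no overlap either, against 11.3% of all genes.

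How the arrays were scaled set the number of calls. Centring on spike-in control RNA put the all-gene median at 0.25 and that of the members at -0.16. It left 10 members lower and 4 higher, so that lower genes made up 71.4% of the members that passed in place of 94.3%, where 3.75% of all genes were lower and 39.6% higher. Spike-in centring moves every gene of an array by the same amount. The distance of the members' median from that of all genes, -0.41, is thus unchanged by construction and is no second test. The 10 members that stayed lower were Ppan, Ddx21, Nolc1, Rrp1b, Tcof1, Ebna1bp2, Gnl3, Nop58, Dkc1 and Npm1, and these also passed under each of the other background and scaling settings tried. All falls below stand relative to the rest of the array, and those of members outside these 10 were not called after spike-in centring.

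**Figure D1:**
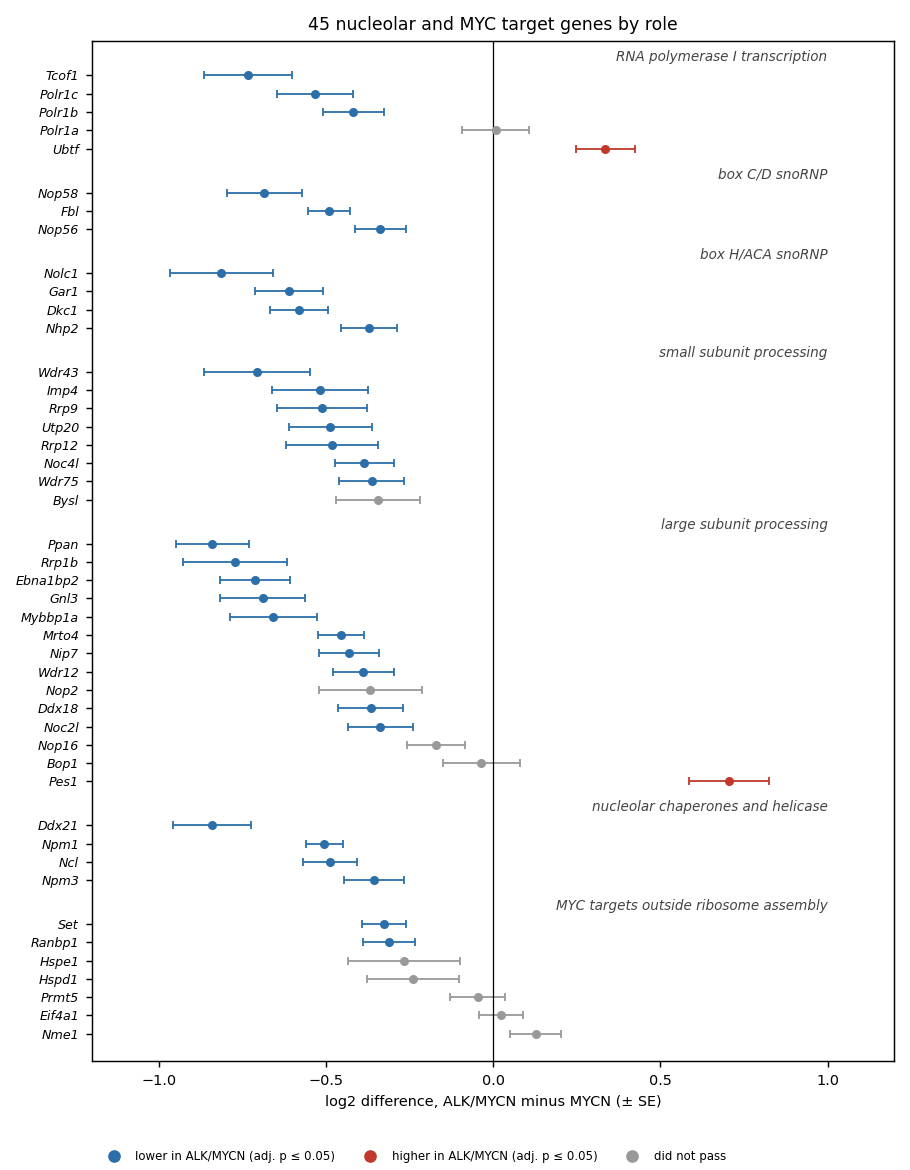
Difference in log2 level between ALK/MYCN and MYCN tumours (x axis, with SE from limma) for the 45 genes, grouped by role and ordered by size within a role. Of the 45, 33 lie to the left of 0 and passed, Pes1 and Ubtf lie to the right and passed, and the 10 grey genes did not pass.

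Among the genes of RNA polymerase I transcription, 3 of 5 fell and 1 rose. Tcof1, encoding treacle, a nucleolar cofactor of RNA polymerase I, measured -0.21, -0.19, -0.51, -0.47 and -0.73 in ALK/MYCN tumours 1 to 5. Its levels in MYCN tumours 1 to 5 were 0.63, 0.24, 0.19, 0.41 and 0.09. All ALK/MYCN tumours lay below all MYCN tumours, a difference of -0.73 ± 0.13 (SE; limma adjusted p = 0.00381). Polr1c, a subunit shared by RNA polymerases I and III, measured -0.07, -0.07, -0.17, -0.47 and -0.34 against 0.60, 0.13, 0.22, 0.20 and 0.39. Again the groups did not overlap, and it fell by 0.53 ± 0.11 (limma adjusted p = 0.00819). Polr1b, the next largest subunit of the polymerase after Polr1a, fell by 0.42 ± 0.09.

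The largest subunit and the architectural factor did not follow. Polr1a, which holds part of the catalytic centre, measured -0.76, -1.21, -0.86, -1.001 and -0.91 in ALK/MYCN and -1.13, -0.82, -0.91, -0.83 and -1.10 in MYCN tumours. These groups overlapped throughout, with a difference of 0.01 ± 0.10 (limma adjusted p = 0.964). Ubtf, encoding the factor UBF that opens the ribosomal DNA, measured 0.79, 0.74, 0.80, 1.13 and 0.86 against 0.40, 0.50, 0.68, 0.59 and 0.46. It rose by 0.34 ± 0.09 (limma adjusted p = 0.0204) with no overlap. The call of Ubtf was lost with slide as a block (limma adjusted p = 0.0548), after scaling between arrays (0.0746), with Cy3 alone (0.596), with probes averaged (0.402) and without ALK/MYCN 3, MYCN 2 and MYCN 5 (0.112).

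All 7 snoRNP genes among the 45 fell, 3 of the box C/D class, which guides ribose methylation, and 4 of the box H/ACA class, which guides pseudouridylation. Each class has a further core protein outside the 45, and neither passed: Nhp2l1 of box C/D stood at 0.09 ± 0.07 and Nop10 of box H/ACA at 0.11 ± 0.10 (SE; 0.341 and 0.457 as limma adjusted p). Fbl encodes fibrillarin, the methyltransferase of the box C/D particles. Its levels were 0.19, -0.06, -0.01, 0.09 and 0.05 in ALK/MYCN tumours and 0.55, 0.60, 0.54, 0.53 and 0.48 in MYCN tumours. The MYCN tumours were tightly grouped, and the difference was -0.49 ± 0.06 (SE; limma adjusted p = 7.94e-04). Nop58, a scaffold protein of the same particle, measured 0.06, -0.02, -0.26, -0.18 and -0.33 against 0.75, 0.66, 0.48, 0.24 and 0.54. That is a fall by 0.68 ± 0.11 with no overlap. Nop56, its partner scaffold, measured 1.44, 1.38, 1.18, 1.21 and 1.21 against 1.78, 1.64, 1.57, 1.51 and 1.59, a difference of -0.34 ± 0.08 (limma adjusted p = 0.0113). ALK/MYCN 1, the highest of its group, lay just below MYCN 4, the lowest of the other.

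Dkc1, encoding dyskerin, the pseudouridine synthase of the box H/ACA particles and of telomerase, measured 0.15, 0.04, -0.04, -0.25 and -0.22 in ALK/MYCN tumours. In MYCN tumours it measured 0.61, 0.58, 0.45, 0.51 and 0.43. The difference was -0.58 ± 0.09 (limma adjusted p = 0.00176). Gar1, a small subunit of the same particle, measured 0.24, 0.29, 0.10, 0.21 and -0.10 against 0.81, 0.56, 0.76, 0.67 and 1.00 and fell by 0.61 ± 0.10. Nhp2, its RNA-binding subunit, measured 0.11, 0.31, 0.04, 0.08 and 0.01 against 0.71, 0.45, 0.41, 0.40 and 0.44. It fell by 0.37 ± 0.08, and MYCN 1 lay well above the other MYCN tumours. Nolc1, a nucleolar chaperone of snoRNPs, fell by 0.81 ± 0.15, among the larger falls of the members.

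Of 8 factors of small subunit processing, 7 fell, by 0.36 to 0.71. Wdr43, a component of the small subunit processome, measured -0.68, -0.65, -1.08, -1.39 and -1.23 in ALK/MYCN and -0.09, -0.22, -0.45, -0.56 and -0.18 in MYCN tumours. ALK/MYCN 1 and 2 lay just below MYCN 4, and the difference was -0.71 ± 0.16 (SE; limma adjusted p = 0.0109). Noc4l, a nucleolar complex protein needed for the small subunit, measured -0.06, 0.04, -0.12, -0.24 and -0.19 against 0.51, 0.17, 0.13, 0.21 and 0.35. The fall was 0.39 ± 0.09 on the log2 scale, without overlap. Bysl, encoding bystin, a late factor of the small subunit, measured 0.29, 0.31, 0.03, -0.11 and -0.07 against 0.78, 0.50, 0.20, 0.31 and 0.40. Its groups overlapped and it did not pass (-0.34 ± 0.13, limma adjusted p = 0.0697). The others that fell were Imp4 and Rrp9, both partners of the snoRNP that binds the early precursor, Utp20 and Wdr75 of the processome, and Rrp12, an export factor. Imp4, at -0.52, did not pass once ALK/MYCN 3, 4 or 5 or MYCN 1 was removed (limma adjusted p between 0.0506 and 0.0633). In Rrp9, Imp4 and Rrp12 the groups overlapped. Rrp12, at -0.48, did not pass without ALK/MYCN 3, 4 or 5 or MYCN 1, 2 or 3 (between 0.0529 and 0.0664), and Wdr75, at -0.36, without ALK/MYCN 5 (0.0559).

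Of 14 factors of large subunit processing, 10 fell and 1 rose. Ppan, a processing factor of the large subunit precursor, measured 0.69, 0.66, 0.88, 0.58 and 0.38 in ALK/MYCN tumours. Its levels in MYCN tumours were 1.72, 1.55, 1.47, 1.37 and 1.27. A wide gap separated the groups, and the difference was -0.84 ± 0.11 (SE; limma adjusted p = 9.11e-04). Ebna1bp2, which encodes a nucleolar protein of early large subunit precursors, measured 0.11, 0.02, -0.11, -0.28 and -0.33 against 0.84, 0.52, 0.62, 0.49 and 0.51. It fell by 0.71 ± 0.10 without overlap. Rrp1b, Gnl3 (nucleostemin) and Mybbp1a fell by 0.77, 0.69 and 0.66, Mrto4 and Nip7 by 0.45 and 0.43. Ddx18, an RNA helicase, fell by 0.37 with overlapping groups and Noc2l by 0.34. The call of Ddx18 was lost without ALK/MYCN 5 (limma adjusted p = 0.0555). Noc2l lost its call on removal of ALK/MYCN 2, 3 or 5 or MYCN 1, 2, 3 or 4 in turn (between 0.0526 and 0.0611). Nop2 stood at -0.37 ± 0.15 and Nop16 at -0.17 ± 0.09, neither past the threshold (0.107 and 0.170 as limma adjusted p).

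The 3 subunits of the PeBoW complex, Pes1, Bop1 and Wdr12, did not give one result: Pes1 rose, Wdr12 fell and Bop1 did not pass. PeBoW acts in the maturation of large subunit RNA. Pes1 measured 1.29, 1.12, 0.88, 1.37 and 1.03 in ALK/MYCN and 0.67, 0.17, 0.55, 0.34 and 0.44 in MYCN tumours. Every ALK/MYCN tumour was higher, and Pes1 rose by 0.71 ± 0.12 (SE; limma adjusted p = 0.00293). Bop1 measured 0.44, 0.32, -0.08, -0.01 and 0.08 against 0.38, 0.24, 0.05, 0.03 and 0.20, with overlapping groups and a difference of -0.03 ± 0.11 (limma adjusted p = 0.853). Wdr12 fell by 0.39 ± 0.09 without overlap. The rise of Pes1 rests on its brighter probe (chromosome 11, 3879948 to 3880007, build mm9). The dimmer probe of the same symbol gave -0.44, and the mean of both did not pass (limma adjusted p = 0.204).

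All 4 nucleolar chaperone and helicase genes fell. Npm1, encoding nucleophosmin, an abundant histone and ribosome chaperone, measured -0.16, -0.31, -0.27, -0.24 and -0.24 in ALK/MYCN tumours. Its MYCN levels were 0.35, 0.27, 0.24, 0.25 and 0.21. Both groups were narrow and far apart, with a difference of -0.51 ± 0.06 (SE; limma adjusted p = 5.12e-04), and 4 probes of Npm1 gave between -0.55 and -0.41. Ddx21, an RNA helicase that joins RNA polymerase I and II transcription, measured -0.66, -0.36, -0.59, -0.90 and -0.64 against 0.47, 0.32, -0.03, 0.14 and 0.17. With 0.84 ± 0.12 it fell most of the 45 members (limma adjusted p = 0.00120), and its second probe gave -0.44. Npm3, a relative of nucleophosmin, measured -0.76, -0.82, -0.74, -0.61 and -0.56 against -0.12, -0.51, -0.32, -0.50 and -0.26. Here ALK/MYCN 5 came close to MYCN 2 and 4, and the difference was -0.36 ± 0.09. Ncl, encoding nucleolin, fell by 0.49 ± 0.08.

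**Figure D2:**
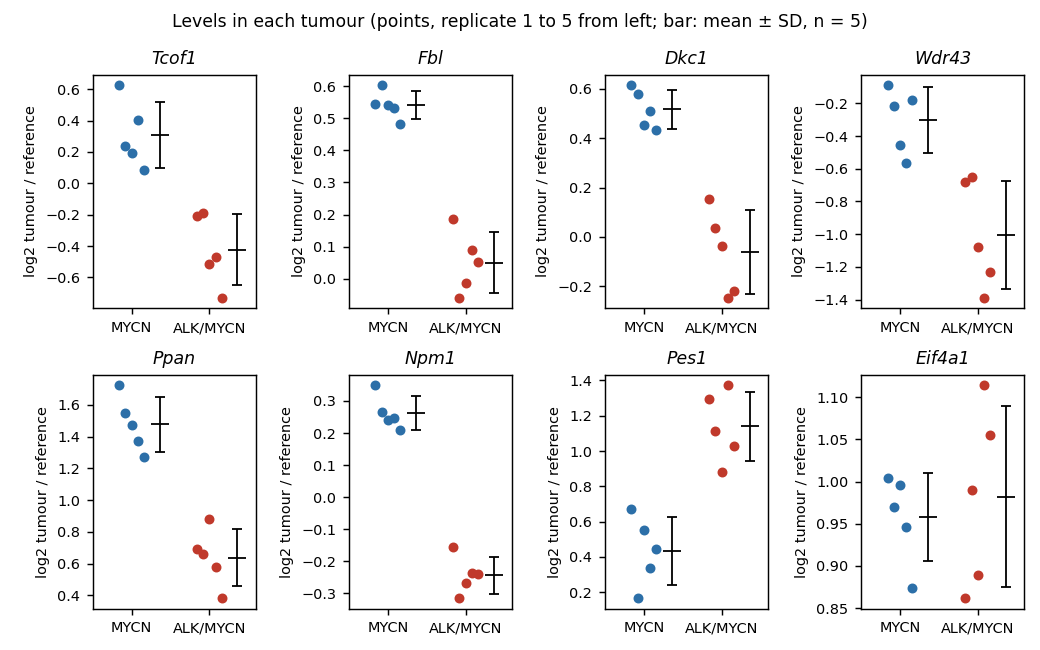
Level (log2 tumour over reference, y axis, scaled separately for each gene) of 8 genes in every tumour, with group mean and SD (n = 5 each). The groups are apart in Tcof1, Fbl, Dkc1, Wdr43, Ppan and Npm1 with ALK/MYCN lower, apart in Pes1 with ALK/MYCN higher, and overlap in Eif4a1.

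Of the 7 MYC targets that work outside ribosome assembly, 2 fell, Set and Ranbp1, and the difference between roles was not tested. Set, a histone chaperone and phosphatase inhibitor, measured 0.80, 0.86, 0.68, 0.82 and 0.63 in ALK/MYCN and 1.19, 1.07, 1.01, 1.05 and 1.09 in MYCN tumours. The groups were apart by a small gap, with a difference of -0.33 ± 0.07 (SE; limma adjusted p = 0.00649). Ranbp1, a cofactor of the nuclear transport GTPase Ran, measured 0.05, 0.02, -0.03, 0.14 and 0.13 against 0.59, 0.38, 0.22, 0.40 and 0.27 and fell by 0.31 ± 0.08. Eif4a1, the helicase of translation initiation, measured 0.86, 0.99, 0.89, 1.11 and 1.06 against 1.00, 0.97, 1.00, 0.95 and 0.87. Its groups overlapped, with a difference of 0.02 ± 0.07 (limma adjusted p = 0.820). Nme1, a nucleoside diphosphate kinase, stood at 0.13 ± 0.08 and the arginine methyltransferase gene Prmt5 at -0.05 ± 0.08. The mitochondrial chaperonin pair Hspd1 and Hspe1 stood at -0.24 ± 0.14 and -0.27 ± 0.17, and none of these 4 passed. After spike-in centring Eif4a1, at 0.28, and Nme1, at 0.38, passed as higher (limma adjusted p = 0.0119 and 0.0164). The all-gene median was 0.25 in that setting, and 39.6% of all genes were higher. Npm1, Set, Hspd1, Hspe1, Nme1, Ranbp1 and Eif4a1 have processed pseudogenes or close relatives in the mouse genome, and signal shared with those copies was not separated.

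Promoter sequence was examined because MYC and MAX bind the E-box CACGTG, which reads the same on both strands. RefSeq promoters of assembly GRCm38.p6, each 300 bases long with 250 before and 50 after the start, were matched by symbol for 40 of the 45 genes. At least 1 CACGTG lay in a promoter of 10 of these 40 (25.0%), against 8.09% of all 27025 genes with a promoter and 7.15% of all 32851 windows. Of the 10, Imp4, Mybbp1a, Set, Utp20 and Wdr43 fell, Pes1 rose, and Eif4a1, Hspd1, Nme1 and Nop2 did not pass. The E-box was thus present for 5 of the 29 matched members that fell and 4 of the 9 that did not pass. The variant CACGCG, searched on both strands, cannot overlap a CACGTG and was present for 15 of 40 (37.5%), against 10.5% of all genes. Of the 15, 9 fell, 2 rose and 4 did not pass, from the same 29 and 9. The members were listed as MYC targets, and the 27025 genes include some not tested on the arrays. The shares of both motifs are thus no test of the members. E-boxes before the start, for Nme1 that of 1 of its starts, are printed below with flanking bases, to set the 2 members that fell beside 4 that did not pass. Sequences read 5′ to 3′ on the strand of the gene, and capitals mark the E-box:
Imp4, chr1:34439688-34439733, plus strand: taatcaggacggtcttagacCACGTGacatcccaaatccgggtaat
Set, chr2:30061842-30061887, plus strand: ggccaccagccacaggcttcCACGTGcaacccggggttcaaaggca
Nop2, chr6:125131803-125131848, plus strand: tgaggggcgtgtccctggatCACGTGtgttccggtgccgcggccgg
Hspd1, chr1:55088298-55088343, minus strand: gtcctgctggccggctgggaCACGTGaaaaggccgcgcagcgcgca
Eif4a1, chr11:69672587-69672632, minus strand: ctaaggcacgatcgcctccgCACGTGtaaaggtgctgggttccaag
Nme1, chr11:93968273-93968310, minus strand: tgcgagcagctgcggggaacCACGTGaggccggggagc
Counted from the start, the first base of the E-box lies at -121 in Imp4 and -134 in Set. It lies at -60 in Nop2, -80 in Hspd1, -189 in Eif4a1 and -18 in Nme1. An E-box was thus present both in members that fell and in members that did not pass. These matches describe letters, and binding was not measured.

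A wider set of 106 measured ribosome biogenesis genes outside the 45 was examined beside them. Of these, 44 (41.5%) fell and 2 rose, against 12.2% and 14.2% of all genes, with a median difference of -0.27. By the list each gene was placed in, 15 of 34 small subunit factors and 15 of 42 large subunit factors fell. Lower too were 7 of 11 genes of the RNA exosome and its helicase. The same held for 4 of 10 RNA polymerase I genes and 3 of 9 other snoRNP genes. Placement was approximate, and a gene could act on the other subunit. Brix1, a large subunit factor, measured -0.99, -0.98, -1.04, -1.15 and -1.15 in ALK/MYCN and -0.15, -0.40, -0.51, -0.51 and -0.51 in MYCN tumours. It fell by 0.65 ± 0.08 (SE; limma adjusted p = 8.68e-04), with a wide gap between the groups, but did not pass as the mean of its probes (limma adjusted p = 0.286). Exosc8, a ring subunit of the RNA exosome, measured -0.06, -0.13, -0.26, -0.23 and -0.42 against 0.59, 0.38, 0.62, 0.37 and 1.07. It fell by 0.82 ± 0.13, and MYCN 5 was the highest tumour. Dis3, a catalytic subunit of the exosome, fell by 0.62, Nle1 by 0.63, Emg1, a methyltransferase of small subunit RNA, by 0.54, and Cd3eap and Polr1d, subunits of RNA polymerase I, by 0.49 and 0.41. Pwp2 of the processome fell by 0.38, and Shq1 and Ruvbl2, assembly factors of snoRNPs, by 0.49 and 0.43.

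The 2 that rose were Noc3l and Tsr2. Noc3l, a partner of Noc2l in the nucleolar complex, measured 0.49, 0.82, 0.55, 0.59 and 0.58 against 0.12, 0.14, 0.43, 0.25 and 0.01, a rise of 0.42 ± 0.09 (limma adjusted p = 0.0102). Tsr2 escorts a small subunit protein but was counted above in the list of large subunit factors. It measured 2.12, 1.86, 1.82, 1.81 and 1.89 against 1.80, 1.32, 1.52, 1.44 and 1.75. ALK/MYCN 4 and MYCN 1 were close, and the difference was 0.34 ± 0.11. Its call was lost on removal of any tumour other than MYCN 1 or MYCN 5 (limma adjusted p between 0.0547 and 0.0880). After spike-in centring 6 of the 106 wider genes were lower and 12 higher, where 3.75% of all genes were lower and 39.6% higher.

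Genes of the ribosome itself and of tRNA charging are given for comparison, and the difference between lists was not tested. Over all genes 12.2% fell and 14.2% rose. Of 74 cytosolic ribosomal protein genes, 14 (18.9%) fell and 60 did not pass by limma, with a median difference of -0.05. Of 75 mitochondrial ribosomal protein genes, 22 (29.3%) fell and 1 rose, with a median of -0.16. Of 20 aminoacyl-tRNA synthetase genes, 3 (15%) fell and 1 rose, with a median of -0.01.

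**Figure D3:**
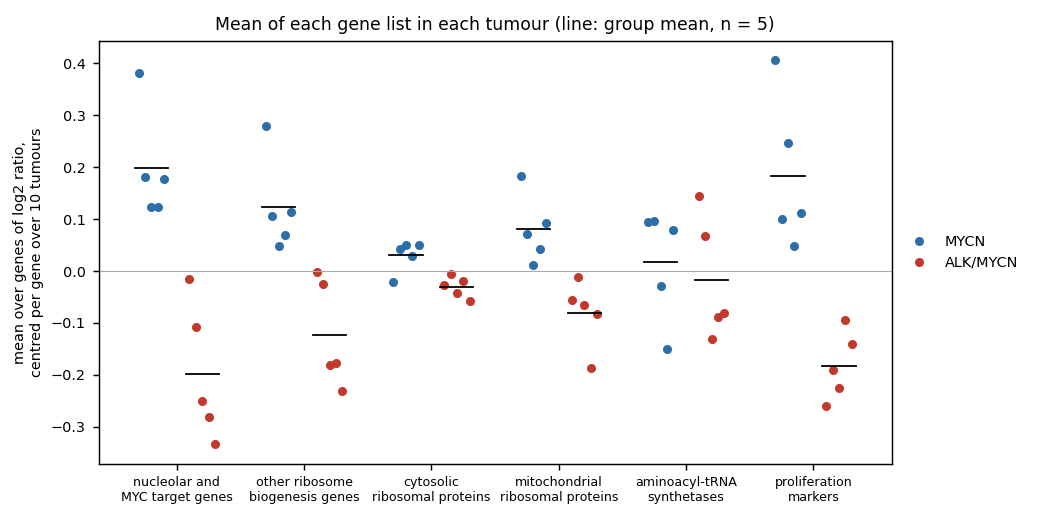
Mean over the genes of each list of the log2 ratio, centred per gene over the 10 tumours (y axis), in every tumour, with the group mean as a line. The nucleolar genes lie between -0.33 and -0.02 in ALK/MYCN and between 0.12 and 0.38 in MYCN tumours. The other ribosome biogenesis genes, the mitochondrial ribosomal proteins and the proliferation markers are also apart. The mitochondrial list lies between -0.19 and -0.01 in ALK/MYCN and between 0.01 and 0.18 in MYCN tumours. The cytosolic ribosomal proteins and the aminoacyl-tRNA synthetases overlap.

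The members varied together from tumour to tumour within a group. Centred per gene, their mean was -0.02, -0.11, -0.25, -0.28 and -0.33 in ALK/MYCN tumours 1 to 5 and 0.38, 0.18, 0.12, 0.12 and 0.18 in MYCN tumours 1 to 5. ALK/MYCN 1 and 2 were the nearest to the MYCN tumours, and MYCN 1 stood above the rest of its group. Among the 33 genes that fell, ALK/MYCN 1 or 2 was the highest of its group in 30, and MYCN 1 was the highest of its group in 28. Over the 990 pairs of members, the median correlation of deviations from the group means was 0.56 across the 10 tumours, and 83.9% of pairs were above 0. Members share array and normalisation, and the same correlation was not computed for other genes, so that it is not shown to be particular to the members. Without MYCN 1, 30 members fell and 2 rose, where 11.7% of all genes fell. Over the removal of each tumour in turn 28 to 34 members fell, where 7.95% to 11.7% of all genes did. A set of 28 members fell in all of these fits.

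Each of the 3 slides held both groups, but 1 group had a single tumour on every slide, so that the values within slides have no test. Slide 1 held ALK/MYCN 2 and MYCN 1, slide 2 held 3 ALK/MYCN tumours and 1 MYCN tumour, and slide 3 held 1 and 3. The median difference of the members was -0.52, -0.35 and -0.49 within slides 1, 2 and 3, with 43, 39 and 40 of the 45 below 0. Over all genes 46.0%, 50.6% and 51.0% were below 0 there. With slide as a block, 31 members fell and 1 rose, against 8.44% and 11.1% of all genes, and Imp4 and Npm3 did not pass (limma adjusted p = 0.0538 and 0.0693).

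Markers of dividing cells were also lower in ALK/MYCN tumours. Of 10 proliferation markers, 7 fell, among them Plk1 by 0.68 and Bub1 by 0.51, while Mki67 was at -0.22 (limma adjusted p = 0.0890). The proliferation mean was -0.18 with an SD of 0.07 in the 5 ALK/MYCN tumours and 0.18 with an SD of 0.14 in the 5 MYCN tumours, without overlap, and MYCN 1 was the highest of all at 0.41. In ALK/MYCN tumours 1 to 5 it was -0.26, -0.19, -0.23, -0.09 and -0.14. Tumours 4 and 5, with the lowest means of the nucleolar genes, had the highest proliferation means of that group. In MYCN tumours 1 to 5 the proliferation mean was 0.41, 0.10, 0.25, 0.05 and 0.11, and MYCN 1 was the highest of its group in both means. The relation of the proliferation mean to that of the nucleolar genes within groups was not tested. With that mean as a covariate the median difference of the members was -0.35, and 0 of the 45 passed by limma (13 lower and 1 higher at an unadjusted p of 0.05). Over all genes 0.431% were then lower and 0.552% higher. The proliferation mean does not overlap between the groups, so that group and proliferation cannot be told apart. In whole tumours, fewer cells of a kind and less RNA per cell cannot be told apart.

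Stromal markers differed as well. Of 8 endothelial markers 6 fell, of 8 macrophage markers 5 fell and 1 rose, and of 8 fibroblast markers 1 fell. The endothelial mean ranged from -0.88 to 0.16 in ALK/MYCN and from 0.08 to 1.06 in MYCN tumours. The macrophage mean ranged from -0.64 to -0.16 and from -0.26 to 0.89, and the fibroblast mean from -1.85 to 0.08 and from -1.71 to 2.40. With the mean of the 3 stromal lists as a covariate, 34 members fell and 2 rose, against 6.86% and 9.42% of all genes, and the median difference was -0.56. Skeletal muscle markers, whose mean was lower in every ALK/MYCN tumour than in any MYCN tumour, were not part of that covariate. Schwann cell markers were higher, with means of 0.19 to 0.81 against -0.72 to 0.05, and 3 of 5 rose. ALK/MYCN 3, MYCN 2 and MYCN 5 had been set apart by earlier results of these data, although MYCN 5 did not stand apart in the adrenal cortex or muscle list. Without these, 16 members fell and 1 rose, against 6.9% and 9.65% of all genes, and the median difference was -0.41.

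The Mycn probe went the other way from the members. Mycn measured 3.26, 2.89, 3.27, 4.83 and 3.98 in ALK/MYCN and 0.33, 0.40, 1.21, 0.83 and 1.24 in MYCN tumours, higher by 2.85 ± 0.35 in ALK/MYCN (SE; limma adjusted p = 7.62e-04). Its probe was designed on the mouse gene, and whether it also reads the transgene was not tested. The mean of the members was lowest in ALK/MYCN 5 and 4, the 2 tumours in which Mycn was highest. ALK/MYCN 1 and 3, with Mycn at 3.26 and 3.27, had member means of -0.02 and -0.25. The relation of Mycn to the members within groups was not tested. Of the other MYC family and partner genes, Mxd1, a repressor that competes with MYC for MAX, rose by 0.55 ± 0.13, but not with slide as a block (limma adjusted p = 0.0576), after scaling between arrays (0.0558), with the stromal covariate (0.153) or without ALK/MYCN 3, MYCN 2 and MYCN 5 (0.0661). Mxd3, a relative found in dividing cells, fell by 0.50 ± 0.09. Myc stood at -0.21 ± 0.34, Max at 0.22 ± 0.08 (limma adjusted p = 0.0644), Mnt at 0.03, Mga at 0.10, Mxd4 at -0.0045 and Mycl1 at 0.06, and none of these 6 passed. Max passed without MYCN 1 (limma adjusted p = 0.0422).

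Probes of a gene did not always give one answer. Of 17 members with more than 1 probe, 7 had probes on both sides of 0. The chosen probe was the brightest by rule. All of the 7 but Ebna1bp2 had only 1 other probe, which was thus the dimmest by construction. In Ebna1bp2 the opposing probe was the dimmest as well, and its remaining probe gave -0.73. Ncl gave -0.49 with its bright and 0.27 with its dim probe, Nolc1 -0.81 and 0.13, Nip7 -0.43 and 0.32, Ebna1bp2 -0.71 and 0.24, and Wdr12 -0.39 and 0.09. Pes1 and Ubtf gave 0.71 and 0.34 with their bright and -0.44 and -0.08 with their dim probes. As means over probes, 30 members fell and 0 rose by limma (32 and 1 at an unadjusted p of 0.05), where 11.9% of all genes fell. Ncl, Nip7, Wdr12, Pes1 and Ubtf did not pass in that fit.

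**Figure D4:**
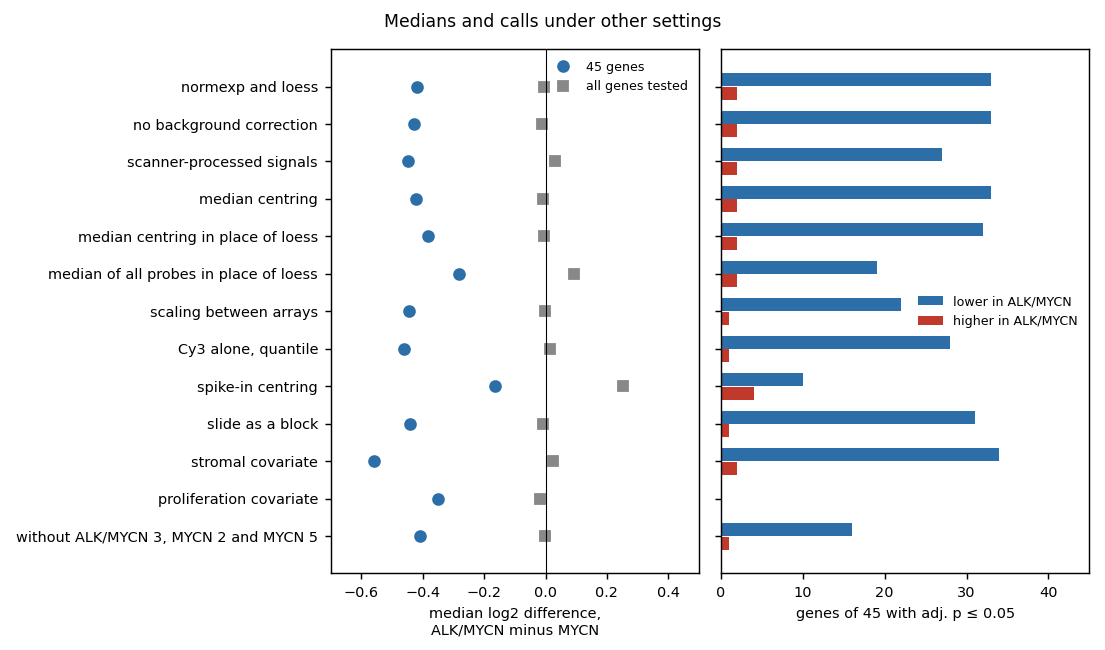
Left, median log2 difference of the 45 genes (circles) and of all genes tested (squares) under 13 settings. Right, number of the 45 that passed as lower or higher. The circles lie left of the squares in every setting shown. Spike-in centring and median centring after loess move circle and square alike, so that their distance is fixed there. The count of lower genes is 33 with normexp and loess, at most 34 (stromal covariate), 10 with spike-in centring and 0 with the proliferation covariate.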

How the data were processed

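The deposited files hold spot intensities of 2-colour Agilent arrays extracted with Agilent Feature Extraction 10.7.3.1, with probe positions on mm9, per the file headers. The scanner's log10 ratios of Cy5 over Cy3, deposited with them per the file headers, served to check direction. The deposited value table holds log2 ratios equal to log2 of processed Cy3 over Cy5 within 5.014e-04, per the comparison with the scanner files. Other steps by the authors are not given in these sources.

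Mean signals were corrected with normexp (offset 50) and loess within arrays, controls at weight 0. Spots flagged as outliers, 177 to 345 an array, were left out; none was saturated. Ratios were turned to tumour over reference. Probes whose Cy3 signal was well above background on 5 or more arrays were kept (30857 of 55681), 1 per gene by highest mean intensity over both channels (22263 genes). The groups were compared by limma 3.58.1 (R 4.3.3), two-sided, with Benjamini-Hochberg adjustment over all genes, after the procedure was tested on simulated data. Precision is limited by the number of arrays.

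The members, lists and alternatives were chosen with earlier results of these data known. Tumour values are printed for the 2 members of smallest p and the 1 of largest p per role and for members that rose; of the wider genes, the 2 of smallest p per list among those that passed and those that rose are named. The 2 kinds of median centring in place of loess were added after seeing the data. One gene of the marker lists is not reported here.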

Additional observations from a re-analysis of the deposited data

Results flagged for a closer look

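Within groups of 5 tumours, 5 of 92 sets of values (5.43%) had a highest or lowest tumour whose gap to its neighbour exceeded 0.71 of the range; chance gives about 1 in 20. All 5 were MYCN 1 as the highest of the MYCN tumours. The share of the range taken by the gap was 0.969 for Mybbp1a (0.61 in MYCN 1 against 0.14 in the next tumour), 0.855 for Nhp2 (0.71 against 0.45), 0.760 for Hspd1 (1.00 against 0.54) and 0.719 for Mrto4 (0.74 against 0.58). For the mean over the 45 members it was 0.773, with 0.38 in MYCN 1 against 0.18. The 5 share tumour and array and are not separate. The proliferation and skeletal muscle means of MYCN 1 were 0.41 and 2.47, and their part was not tested.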

How the results depend on the processing

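Against 33 members lower, 2 higher and a median difference of -0.42, and 44 wider genes lower and 2 higher, spike-in centring gave 10, 4 and -0.16, and 6 and 12. Over all genes 3.75% were then lower and 39.6% higher. With the median of all probes in place of loess there were 19 lower members with a median of -0.28, and 15 and 4 wider genes. The share of all genes that were lower was then 6.05%. Scaling between arrays gave 22 lower and 1 higher members, without Set, Nop56, Polr1b, Nhp2 and Rrp9 among others, and 27 and 1 wider genes; 27 members were lower with scanner-processed signals and 28 with Cy3 alone. Without ALK/MYCN 3, MYCN 2 and MYCN 5 there were 16 and 1 members, and 15 and 0 wider genes (46 and 3 at an unadjusted p of 0.05 by limma). The stromal covariate gave a median of -0.56. The proliferation covariate gave 0 lower and 0 higher among members and wider genes (by limma; 13 and 1, and 11 and 4, at an unadjusted p of 0.05) and turned Npm3 from -0.36 to 0.0051. There was 1 higher member with Cy3 alone and with slide as a block and 0 with probes averaged, and 1 higher wider gene in the scanner-processed signals, with Cy3 alone, without a filter, with a variance trend and with the stromal covariate. The cause was not tested in these cases. Without each tumour in turn, 28 to 34 members were lower and 2 higher, with medians from -0.47 to -0.38, and 30 to 45 wider genes were lower and 1 to 3 higher. In those fits 7.95% to 11.7% of all genes were lower. The replicate block, whose numbers only name tumours, gave 34 and 2 members with a median of -0.42, and 44 and 2 wider genes. With that block 9.41% of all genes were lower. Deviations of same-numbered tumours correlated at 0.34 for number 1 and between -0.09 and -0.02 for the others. Only number 1 correlated best with its own number. Of the members that did not pass, Bop1, Eif4a1, Hspd1, Hspe1, Nop16, Polr1a and Prmt5 changed sign under some alternatives, with sizes of at most 0.25. The median of the members stayed below 0 in every setting tried.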
